A study of Homo sapiens with 17 samples.

Results

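The baseline transcriptome of control SW480 cells is the mRNA sequencing of cells that carried an inducible short hairpin RNA (shRNA) against LacZ, a bacterial gene that human cells lack, before any TNF-α was added. SW480 is an established line from a human colon tumour. Its known background includes a truncated APC. The cells were grown in DMEM with serum, puromycin and doxycycline, so the hairpin was induced in them, and the level of a gene is that of this hairpin line and not of untreated parental cells. The group has 2 columns in the gene table, replicates A and B, out of 8 mRNA-seq columns, and GEO holds both under 1 of the 17 samples of the series. The other mRNA-seq groups carried an shRNA against p53, were treated with 12.5 ng/ml TNF-α for 16 h, or both, and the remaining samples of the series were ChIP-seq and GRO-seq. All 26457 genes of the table were members, and no comparison between groups was made.

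The colon is lined by a single layer of epithelial cells that renews itself from stem cells at the base of the crypts. WNT signalling keeps the crypt cells dividing, and cells that leave the crypt become absorptive colonocytes, mucus-filled goblet cells or hormone-releasing enteroendocrine cells. Loss of APC, a component of the complex that marks β-catenin for destruction, leaves β-catenin free to work with TCF and LEF factors at WNT target genes, and this is the usual first step of colon cancer. The levels of lineage, signalling, adhesion, receptor and transcription factor genes were therefore read in these cells as they stood before the cytokine.

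Replicate A had 12751404 reads on genes and replicate B had 6108488. The level of a gene is its normalized reads divided by the length of its transcript in kilobases, and the normalization gave both replicates the same total. A gene is called expressed at a level of at least 10 in both replicates, which is 1.08 RPKM if the reads on genes are taken as the total. For a gene of the median length of 2197 bases, this level was 30.3 reads in replicate A and 14.5 in replicate B. A gene is called silent at 3 reads or fewer in each replicate, and weak otherwise. Silent is set by reads and not by level, so a long weak gene can have a lower level than a short silent one. Pairs of values give replicate A first. By these rules 12027 genes were expressed (45.5% of all), 11588 were silent (43.8%) and 2842 were weak. Among the 19261 protein-coding genes, 57.7% were expressed and 31.4% were silent, and these shares are the background for the counts of each list. The median level of the expressed genes was 115, their quartiles were 47.6 and 275, and 634 of them reached 1000.

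The replicates were close. The median absolute difference between them was 0.11 on the log2(level + 1) scale, a ratio of 1.08, and 95% of expressed genes lay within a ratio of 1.38. The spread was wider at low levels, with a median of 0.21 for expressed genes under a level of 30 and 0.084 for those at 1000 or more. A total of 95 expressed genes differed by more than 2 times, and 68 of these were shorter than 200 bases. Long genes were slightly higher in replicate B: the median log2 ratio of A to B was 0.093 in the shortest 20% of expressed genes and -0.062 in the longest 20%. A pair of genes is called separated when both replicates of one lie above both of the other, and no test was run on the 2 replicates of this 1 group. In bulk RNA, fewer cells with a transcript and less of it in each cell cannot be told apart.

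The genes with the highest levels were those of the cytoskeleton, of ribosomes and of a simple epithelium. The most abundant transcript of at least 200 bases was ACTB, which encodes β-actin, at 28836 and 29317. TMSB10, an actin monomer binding protein, followed at 21267 and 19688, and the glycolytic enzyme gene GAPDH stood at 17414 and 16971. Keratin genes took 3 of the 20 highest places, with KRT18 at 18926 and 17727, KRT5 at 15641 and 14428 and KRT8 at 12953 and 11965. Among the 20, 8 genes, RPL37A, RPL8, RPS21, RPLP2, RPS6, RPL35 and RPS16 among them, encode ribosomal proteins and lay between 8773 and 16674. GNB2L1, which encodes the ribosome-bound scaffold RACK1, was at 12386 and 11752. S100A4, a calcium-binding protein linked to cell motility, reached 15195 and 13955. A membrane transporter was in this group too, since SLC1A5, which brings glutamine into the cell, was at 14611 and 14124. The remaining places went to the actin crosslinker gene ACTN4 at 9306 and 9158, the metallothionein gene MT2A at 9239.9 and 9028 and the ferritin light chain gene FTL at 9058 and 8759. Genes for ribosomal proteins, KRT8 and KRT18 have many processed copies in the genome, so their levels depend on how reads shared with those copies were placed.

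The epithelial identity of the line was plain in the markers, of which 15 of 16 were expressed. The EpCAM gene EPCAM, a surface protein of nearly all simple epithelia, stood at 3501 and 3332. KRT18, KRT8 and another simple keratin, KRT19, at 5054 and 4863, were the highest of the list, and the tight junction gene CLDN4 was at 1681 and 1586. The splicing regulators ESRP1, at 171 and 187, and ESRP2, at 216 and 247, which set the epithelial forms of many transcripts, were expressed as well. The E-cadherin gene CDH1 lay lower in this list, at 101 and 97.3, just under the median of all expressed genes. RAB25, which encodes a Rab GTPase of epithelial recycling endosomes, was the only silent member and had no read in either replicate. A count of 0 is read here as a level of up to 3 reads, which for RAB25 is 2.02 and 4.22.

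Markers of the mature colon surface were mostly silent. Of 27 colonocyte genes 4 were expressed, 2 were weak and 21 were silent, against the 57.7% and 31.4% of protein-coding genes. VIL1, which encodes the microvillus protein villin, led at 201 and 177. USH1C, a scaffold protein of the links between microvilli, followed at 67.9 and 77.3. CEACAM1 at 15.4 and 13.6 and the membrane mucin gene MUC13 at 14.2 and 11.6 passed the threshold narrowly and were not separated from each other. SLC9A3, the sodium-proton exchanger of the brush border, was weak at 3.95 and 7.69. The silent members held the genes that define the absorptive surface, such as the chloride-bicarbonate exchanger SLC26A3, the water channel AQP8, the carbonic anhydrases CA1, CA2 and CA4, the surface antigen GPA33, the intestinal cadherin CDH17 and the keratin KRT20. GPA33 had 1 and 2 reads. The small intestinal absorptive list had no expressed gene among 15, with 10 silent, and its highest member, the trehalase gene TREH, was at 5.53 and 5.77.

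Markers of the secretory lineages were also mostly silent. The goblet list had 10 silent genes of 11, including the trefoil factor TFF3, AGR2, SPINK4 and ZG16, and its remaining member, the gel-forming mucin gene MUC2, was weak at 0.169 and 0.883. The Paneth list had no expressed gene of 7, with its highest member DEFA5 at 4.80 and 3.33. Of 12 enteroendocrine genes 3 were expressed: SYP at 35 and 21.2, CHGA at 16.8 and 15.6 and CHGB at 12.4 and 15.5. These encode components of secretory granules or vesicles. Other granule genes of the list were not expressed: SCG2 and SCG5 were silent and PCSK1 was weak at 3.38 and 2.35. The hormone genes GCG, PYY and INSL5 and the enteroendocrine factors NEUROG3 and NEUROD1 were silent. In the tuft cell list the kinase gene DCLK1 was expressed, at 36.1 and 32.1, while the tuft cell factor POU2F3 and the channel gene TRPM5 were silent.

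The crypt list stood opposite to the surface lists, with 16 of 20 genes expressed and a median level of 302. APCDD1, a membrane inhibitor of WNT signalling that is itself a WNT target (chr18:10454625-10488698, plus strand, gene ID 147495; hg19, as are all gene coordinates here), was at 6603 and 5863 and held 40.9% of the summed level of the list. MYC at 1745 and 1689 and AXIN2, a scaffold of the destruction complex, at 1655 and 1692 were not separated. ASCL2, the transcription factor that sets the intestinal stem cell state, reached 1042 and 1033, and the crypt factor SOX9 reached 889.8 and 856. LGR5, the receptor by which intestinal stem cells are usually known, was weak, with 8 and 1 reads and a level of 1.29 and 0.334. The 95% Poisson interval of its reads was 3.45 to 15.8 in replicate A and 0.0253 to 5.57 in replicate B, which covers counting error only. The other exceptions were silent: the stem cell genes OLFM4 and SMOC2 had no read, and PROM1 had 0 and 1.

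**Figure D1:**
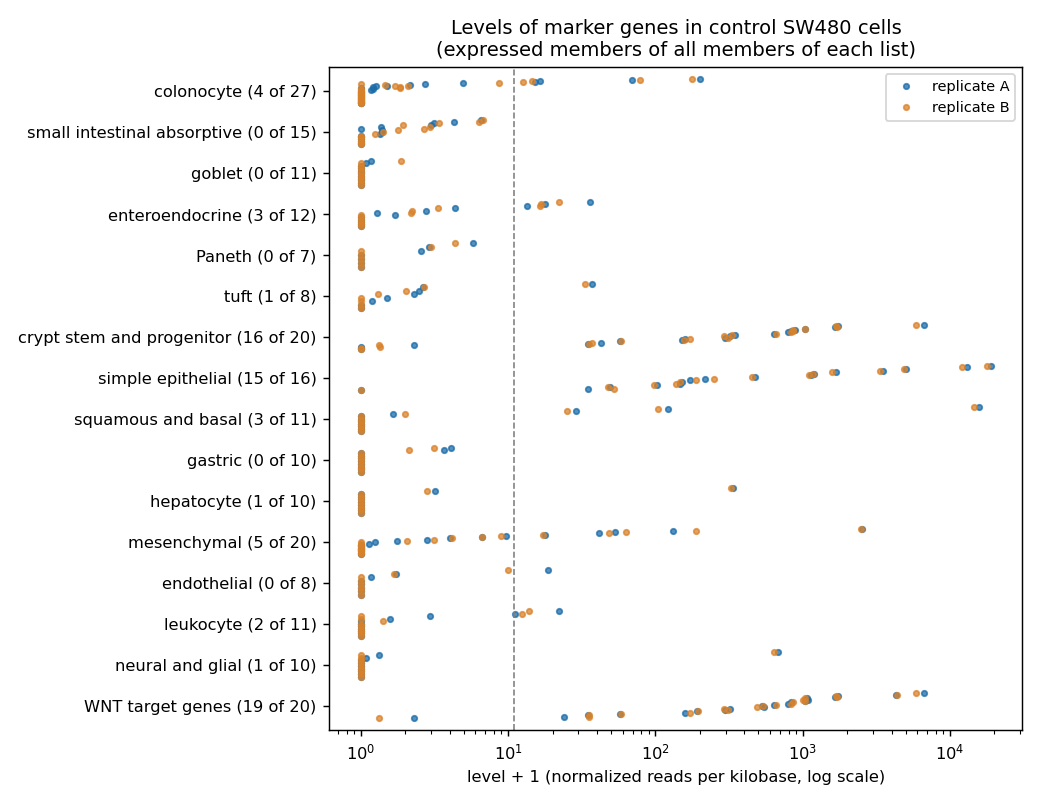
Level of every marker gene in replicate A (blue) and replicate B (orange), as level + 1 in normalized reads per kilobase on a log axis, for 16 lists, with the dashed line at the threshold of 10 and the number of expressed genes beside each name. The simple epithelial and WNT target lists lie to the right of the line except for 1 gene each, and 16 of the 20 crypt genes do. The goblet, Paneth, gastric, endothelial and small intestinal lists have no expressed gene.

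Markers of tissues other than gut were expressed in small numbers. Of 20 mesenchymal genes 5 were expressed, and the intermediate filament gene VIM, at 2519 and 2483, held 89.4% of the summed level. Fibronectin FN1 at 131 and 187, the actin gene ACTA2 at 51.9 and 62.4 and the factors SNAI1 at 40.5 and 47.2 and ZEB1 at 16.7 and 16.2 were the others. The fibroblast genes COL3A1, PDGFRA, LUM, DCN and FAP and the mesenchymal cadherin CDH2 had no read. In the squamous and basal list KRT5 held 99.1%, and the basal cell factor TP63 and the partner keratin KRT14 had no read. KRT10, a keratin of upper epidermal layers, was at 121 and 102 and KRT6A at 28 and 24.2, the latter uncertain because KRT6A, KRT6B and KRT6C are nearly identical.

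The hepatocyte list had 1 expressed gene of 10, the antitrypsin gene SERPINA1 at 335 and 323, beside no read on ALB or AFP. The neural list had 1 of 10, the tubulin gene TUBB3 at 680.0 and 634, with RBFOX3, SOX10 and STMN2 at no read. The monocyte marker CD14 at 21.2 and 12.9 and the lysosomal gene CD68 at 10.2 and 11.5 were the expressed genes of the leukocyte list, in which PTPRC, the gene of the pan-leukocyte antigen CD45, was silent. Endothelial and gastric lists had no expressed gene. ESAM, at 17.6 and 8.96, was the highest endothelial gene and fell on both sides of the threshold, and the gastric trefoil gene TFF2 was at 3.11 and 2.15.

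The factors that specify intestine were present in part. Of 29 genes listed, 13 were expressed (44.8%) and 10 were silent, beside 57.7% and 31.4% of all protein-coding genes. After ASCL2 and SOX9 came the vitamin D receptor gene VDR at 619 and 575 and CDX2, the homeobox factor that gives the gut its intestinal identity, at 418 and 411. HNF4A, a nuclear receptor of gut and liver epithelium, was at 115 and 115. PROX1 stood at 129 and 136. The crypt factor KLF5, at 226 and 249, was separated from the factor of differentiated cells KLF4, at 58.5 and 57.5. Some relatives of these genes were silent: CDX1, HNF4G, GATA4 and the goblet factors ATOH1 and SPDEF had no read in either replicate. GATA6, the GATA factor of colon epithelium, was weak at 1.54 and 2.41.

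Keratins pair a type I with a type II protein to form filaments, and which pairs a cell makes marks the kind of epithelium. In the type I family, KRT18 held 72.4% of the summed level, KRT19 19.6% and KRT23, at 1643 and 1635, 6.48%, each separated from the next. In the type II family, KRT5 (chr12:52908359-52914243, minus strand, gene ID 3852) held 53.6% and KRT8 44.4%, so that a basal keratin stood above the simple one in both replicates. The ratio of their mean levels was 1.21, and the level of KRT8 depends on how reads shared with its processed copies were placed. KRT18, the usual partner of KRT8, was abundant, while KRT14, the usual partner of KRT5, had no read. KRT20, the keratin of differentiated colon surface cells, was silent with 0 and 1 reads, and KRT7, a keratin more often found outside the colon, was weak at 5.58 and 8.06. In all, 19 of 28 type I and 15 of 26 type II genes were silent. The hair keratins KRT81 and KRT86, at 89 and 70.2 and at 14 and 17.5, share much of their sequence and are uncertain.

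**Figure D2:**
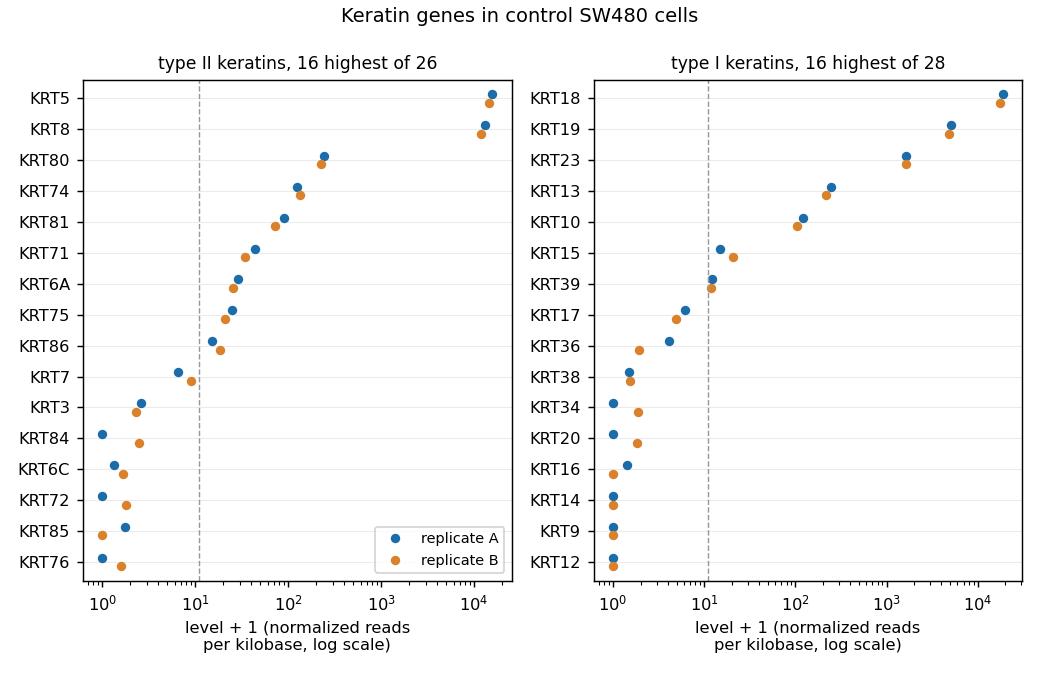
Levels of the 16 highest type II (left) and type I (right) keratin genes in replicate A (blue) and replicate B (orange), as level + 1 in normalized reads per kilobase on a log axis, with the dashed line at the threshold of 10. KRT5, KRT8 and KRT18 lie at 11965 or above in both replicates, while KRT14 and KRT20 lie at the left end of the axis.

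Among the other intermediate filaments the nuclear lamin gene LMNA was highest at 3307 and 3404, VIM held 30.6% of the list, and nestin, NES, a filament of progenitor cells, was at 443 and 463. Neurofilament genes NEFL, NEFM and NEFH were silent.

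WNT ligands bind a Frizzled receptor together with LRP5 or LRP6, and R-spondins raise the signal by removing the receptor-degrading enzymes RNF43 and ZNRF3. Among 19 ligand genes 8 were expressed, and WNT6 (chr2:219724546-219738954, plus strand, gene ID 7475) dominated at 1328 and 1395 with 63.3% of the summed level. Without division by transcript length its share was 40.7%, under the mark of 50% for a dominant gene, and WNT5A was highest. By level WNT5A, which signals mostly without β-catenin, was next at 416 and 386 and WNT10A at 146 and 172. WNT1, WNT2, WNT2B, WNT3A, WNT8A and WNT9B were silent. Of 10 Frizzled genes 9 were expressed and none was dominant: FZD7 was highest at 198 and 213, FZD1 was at 107 and 113 and FZD6 was at 94.7 and 95.2. LRP5 at 482 and 518 was separated from its relative LRP6 at 66.2 and 75.6.

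All 4 R-spondin genes were silent, with no read in either replicate. Their targets RNF43 at 318 and 289.6 and ZNRF3 at 293 and 308 were expressed and not separated. The R-spondin receptor genes LGR4, at 19.2 and 16.2, and LGR6, at 67.8 and 73.1, were expressed, while LGR5 was weak. Secreted inhibitors were abundant, with NOTUM, an enzyme that removes the lipid of WNT proteins, at 798 and 832, DKK4 at 529 and 532 and SFRP5 at 235 and 244. SFRP1, SFRP2, FRZB, DKK2 and WIF1 were silent.

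Inside the cell, CTNNB1, the gene of β-catenin, was at 2863 and 2919, and APC was at 56.5 and 60.4. Of the 4 nuclear partners TCF7 dominated at 546 and 489 with 60.7%, followed by LEF1 at 192 and 194, TCF7L2 at 103 and 95.7 and TCF7L1 at 40.2 and 44.3, each separated from the next. Target genes of the pathway were expressed in 19 of 20 cases, with a median level of 589. The cyclin gene CCND1 was at 4262 and 4381, second to APCDD1, and the transcription factor gene SP5 was at 1073 and 1026. The feedback inhibitor NKD1 was at 638 and 658, and the ephrin receptors EPHB2, at 56.2 and 57.2, and EPHB3, at 34 and 34.6, which sort cells along the crypt, were lower. LGR5 was the exception again, and 13 of the 20 targets are also in the crypt list, so the lists are not independent.

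**Figure D3:**
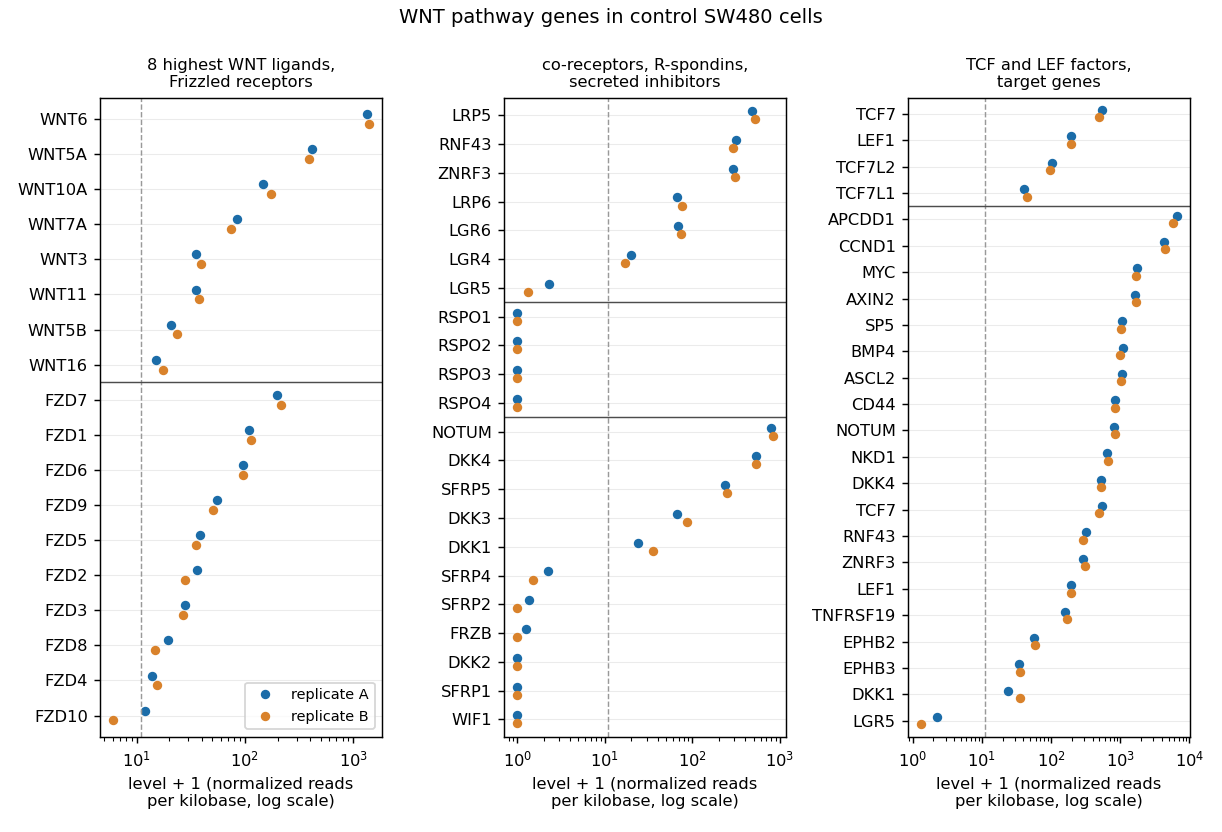
Levels of WNT pathway genes in replicate A (blue) and replicate B (orange), as level + 1 in normalized reads per kilobase on a log axis, by role, with the dashed line at the threshold of 10. WNT6 leads the ligands on this scale, the 4 R-spondins lie at the left end of the axis, and LGR5 is the only target gene left of the line.

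Receptor tyrosine kinases carry growth factor signals to RAS and PI3 kinase. Of 58 such genes 31 were expressed, 9 were weak and 18 were silent. These shares were close to those of all protein-coding genes, 57.7% expressed and 31.4% silent. The 10 highest were DDR1, EPHB6, EPHA2, PTK7, EPHB4, MST1R, ERBB2, EGFR, FGFR1 and RYK. DDR1, a collagen receptor, led at 907 and 955. The ephrin receptors EPHB6, at 827 and 754, which lacks kinase activity, and EPHA2, at 744 and 829, dominated their families with 62.8% and 76.9%, and the ephrin ligand EFNB1 at 1641 and 1659.9 held 77.6% of its own. PTK7, a pseudokinase of planar polarity, was at 684 and 632.

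In the EGF receptor family ERBB2, at 274 and 282, and EGFR, at 250.3 and 297, were not separated, and ERBB2 was higher in replicate A and EGFR in replicate B. ERBB3 was at 155 and 180.4 and ERBB4 had no read. MST1R, the receptor RON, held 89.7% at 346 and 386, above MET at 39.1 and 45.1. All 4 FGF receptors were expressed, with FGFR1 at 205 and 231 and FGFR4 at 143 and 153 far above FGFR2 and FGFR3. IGF1R at 127 and 146 exceeded INSR at 55.2 and 54.2. In the TAM family AXL was at 186 and 236 and TYRO3 at 139.8 and 151. NTRK2, a neurotrophin receptor, was at 73.3 and 79.2 and ROR2 at 51.7 and 49.3. The VEGF receptors FLT1, KDR and FLT4 were silent, and no PDGF or CSF receptor was expressed.

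Ligands of these receptors fell to few genes. TGFA, a ligand of EGFR, was at 226 and 223 and held 82.5% of the EGF family, whose members EGF, AREG, EPGN, NRG1 and NRG3 were silent. FGF19, the gut hormone that signals through FGFR4 (chr11:69513006-69519106, minus strand, gene ID 9965), was at 2196 and 2048, and FGF3 was at 1024 and 970.0. Together they held 64.4% and 30.2% of the FGF family, of which 13 of 22 genes were silent. PDGFA at 1288 and 1353 and VEGFB at 516 and 472 were expressed, while no receptor of the PDGF or VEGF families was. VEGFA was at 93.6 and 102.

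The RAS gene HRAS was at 461 and 484. ARAF dominated the RAF kinases at 363 and 366, above BRAF at 24.1 and 23.3. AKT1 dominated the AKT kinases at 1019.6 and 969, ahead of AKT2 at 325 and 343. The PI3 kinase subunits PIK3CB, at 77.4 and 74.3, and PIK3CA, at 55.3 and 68.2, were separated. PIK3CD was expressed too, at 15.5 and 20.5, and PIK3CG was silent.

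Notch signalling was represented at each step. NOTCH1 at 246 and 299 and NOTCH2 at 165 and 188 were expressed, while NOTCH3 and NOTCH4 were weak. JAG2 dominated the ligands at 382 and 419.8 with 69.9%. Among the HES and HEY factors HES6 was highest at 472 and 371, HES4 followed at 313 and 299, and the intestinal Notch target HES1 was at 222 and 217. In the Hedgehog pathway the ligand SHH was at 165 and 189, the receptor PTCH1 at 335 and 349.8 and the factor GLI3 at 447 and 446, while the activator GLI1 had 11 and 4 reads. In the Hippo pathway YAP1 at 568 and 584 was separated from its relative WWTR1 at 108 and 117, and TEAD4, TEAD2 and TEAD1 were not separated from one another.

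Of 33 ligand genes of the TGF-β and BMP pathways 13 were expressed, which is 39.4% beside 57.7% of all protein-coding genes. Silent ones numbered 15, among them BMP2, BMP5 and NODAL. The highest were BMP4 at 1088 and 1005 and BMP7 at 802 and 713, and TGFB1 was at 564 and 549.7. Receptors were present, ACVR1B at 335 and 337, TGFBR1 at 245 and 273 and TGFBR2 at 122 and 121. The shared mediator was close to zero: SMAD4 (chr18:48556583-48611411, plus strand, gene ID 4089), the common partner of the receptor-bound SMAD proteins of both pathways, had 11 and 6 reads and a level of 0.911 and 1.04. Its 95% Poisson interval was 5.49 to 19.7 reads in replicate A and 2.20 to 13.1 in replicate B. The receptor-bound members SMAD5 at 166 and 175, SMAD3 at 91.2 and 103, SMAD1 at 80.6 and 82.6 and SMAD2 at 36.2 and 35.2 were expressed, as was the inhibitor SMAD7 at 139 and 139.

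Promoter sequence is shown for 4 of the genes on which the lineage and pathway results turn: APCDD1, the most abundant crypt and WNT target gene, KRT5, the highest type II keratin, SMAD4, the weak mediator of TGF-β signals, and GPA33, a silent colonocyte gene. Each runs from 250 bases before to 50 bases after the transcription start, 5′ to 3′ on the strand of the gene, from RefSeq with build GRCh38.p14, which is another build than that of the gene table. The dinucleotide CG, the site of DNA methylation, is in capitals. Over all 35116 promoters of the RefSeq table the median was 14 CG, with quartiles of 4 and 28. APCDD1 (chr18:10454385-10454684, plus strand) has 33 CG, and 15.6% of all promoters have more. KRT5 (chr12:52520345-52520644, minus strand) has 7, and 60.7% have more. SMAD4 (chr18:51029963-51030262, plus strand) has 28, and 24.2% have more. GPA33 (chr1:167090328-167090627, minus strand) has none. Methylation was not measured. A count of CG over all expressed and silent genes would be void, since 74.5% of the silent protein-coding genes had an entry, under the 80% needed.
APCDD1: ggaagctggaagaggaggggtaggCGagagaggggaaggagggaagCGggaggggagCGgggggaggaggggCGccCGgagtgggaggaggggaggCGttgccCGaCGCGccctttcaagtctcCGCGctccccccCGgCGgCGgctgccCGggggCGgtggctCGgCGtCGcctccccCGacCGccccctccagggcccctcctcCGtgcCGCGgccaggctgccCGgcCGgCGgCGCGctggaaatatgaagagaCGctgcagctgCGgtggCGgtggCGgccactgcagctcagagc
KRT5: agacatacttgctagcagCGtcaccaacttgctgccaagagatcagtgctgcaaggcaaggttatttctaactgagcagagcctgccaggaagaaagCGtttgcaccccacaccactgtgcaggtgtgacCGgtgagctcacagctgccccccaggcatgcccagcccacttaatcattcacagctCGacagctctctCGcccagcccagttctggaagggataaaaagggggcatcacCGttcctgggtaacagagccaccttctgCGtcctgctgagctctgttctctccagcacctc
SMAD4: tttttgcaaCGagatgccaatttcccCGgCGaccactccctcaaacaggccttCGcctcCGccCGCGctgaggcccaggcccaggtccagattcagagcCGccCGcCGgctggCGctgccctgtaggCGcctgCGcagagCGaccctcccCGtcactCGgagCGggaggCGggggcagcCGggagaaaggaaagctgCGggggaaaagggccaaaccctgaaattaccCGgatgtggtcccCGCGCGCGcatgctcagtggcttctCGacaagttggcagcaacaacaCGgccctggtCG
GPA33: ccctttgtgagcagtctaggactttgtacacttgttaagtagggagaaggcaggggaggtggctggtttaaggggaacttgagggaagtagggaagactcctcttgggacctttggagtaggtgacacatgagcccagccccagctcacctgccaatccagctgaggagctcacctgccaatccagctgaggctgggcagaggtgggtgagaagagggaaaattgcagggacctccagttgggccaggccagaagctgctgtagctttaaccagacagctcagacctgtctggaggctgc

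Genes for adhesion to the basement membrane were led by the hemidesmosome pair ITGA6 at 619 and 676 and ITGB4 at 869.8 and 1024, together with ITGA3 at 628 and 676, which was not separated from ITGA6. ITGB5, a vitronectin receptor chain, was at 767 and 780.2, and ITGB1, the most widely shared chain, was at 255 and 329. The leukocyte chains ITGAL, ITGAM, ITGAX and ITGAD and the platelet chain ITGB3 were silent. Among the laminins, the ligands of these integrins, LAMA5 was highest at 491 and 573. ITGB4 and LAMB2, at 207 and 293, were among the long genes that were higher in replicate B.

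Between cells, the cadherin family was led by CDH13 at 187 and 195, a cadherin without a cytoplasmic tail, then the placental cadherin CDH3 at 145 and 137 and CDH1. Of 23 cadherins 17 were silent, among them CDH2, CDH5, CDH6, CDH16 and CDH17. Among the catenins, CTNNA1, which links cadherins to actin, was at 1692 and 1860.0, CTNND1, whose p120 protein binds the cadherin tail beside the membrane, was at 375 and 402, and CTNNB1 held 53% of the family. In desmosomes DSG2, at 169 and 185, held 93.2%, DSG3 was silent, and PKP3 led the plakophilins at 726 and 653 before PKP4 at 459.9 and 429 and PKP2 at 288 and 307. Without division by length PKP4 was highest.

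Tight junction genes were led by CLDN4 with 43.8% and CLDN7, at 1137 and 1097, with 29.9% of the claudins, of which 13 of 23 were silent. CLDN11, a claudin of myelin and testis, followed at 444 and 416. GJB1, the connexin of liver and gut, dominated the gap junction genes at 1479 and 1382 with 65.5%, or 46.9% without division by length, and GJA1 was silent. L1CAM, a neural adhesion molecule also found at the invasive edge of colon tumours, was highest of the immunoglobulin adhesion molecules at 440.2 and 462, and held 19.1%. PVRL1 at 663 and 606, PVR at 364 and 347 and PVRL2 at 273 and 323 were the expressed nectins, which join cells beside the cadherins.

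The surface glycoproteins that usually mark colon cancer were low. CEACAM5, the gene of the tumour marker CEA, and CEACAM6 were silent with no read on CEACAM5, and the highest CEACAM gene was CEACAM21 at 45.1 and 46.6. The mucins summed to 44.2 and 45.8 over 15 genes, with MUC1 highest at 19.1 and 24.9 and MUC13 next. Levels of the closely related CEACAM genes, and of MUC3A and MUC12, are uncertain where reads match several of them.

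Receptors coupled to G proteins were counted in 6 families, beside the Frizzled and LGR genes described above. The background is 57.7% expressed and 31.4% silent among all protein-coding genes. Expressed genes numbered 2 of 23 for chemokine receptors, 4 of 20 for lipid mediator receptors, 1 of 4 for protease-activated receptors, 3 of 14 for adenosine and P2Y receptors and 3 of 4 for the GPRC5 group. CXCR4, the receptor of the chemokine CXCL12, was at 456 and 334 and held 87.5% of the summed level of its family, and CCR7 at 48.4 and 39.3 was the only other expressed one. LPAR2, a receptor of lysophosphatidic acid, led the lipid receptors at 169.9 and 152 with 53%, or 41.2% without division by length, and F2RL1, the trypsin-activated receptor, led the protease-activated ones at 77.1 and 69.5. The adenosine receptor ADORA2B was at 239.6 and 248 with 81% of its family. GPRC5C at 407 and 413 and GPRC5A at 246 and 273 were the main orphan receptors of their group. All 5 muscarinic receptors were silent. CXCR4 differed more between replicates than most genes of its level.

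Because the cells were later given TNF-α, the receptors and mediators of that cytokine were read at 0 h. Of 29 genes of the TNF receptor superfamily 18 were expressed, which is 62.1% beside 57.7% of all protein-coding genes. TNFRSF12A, the receptor of the ligand TWEAK, was highest at 2711 and 2730.2, though not without division by length, where TNFRSF1B was. By level TNFRSF1B, the second TNF receptor, at 1178 and 1186, was separated from TNFRSF1A, the first, at 577 and 562. LTBR was at 585 and 573, and the TRAIL receptors TNFRSF10B and TNFRSF10A were at 280.2 and 298 and at 214 and 286. CD40, CD27 and TNFRSF11A had no read. All 5 NF-κB subunits were expressed, and RELA, the gene of p65, held 52.6% at 391 and 386, or 43.8% without division by length, ahead of NFKB1 at 146 and 151, NFKB2 at 122 and 126, RELB at 57.4 and 62.3 and REL at 16.5 and 20.2.

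The genes that the study followed by quantitative PCR started low. MMP9, a secreted matrix protease, had 3 and 0 reads. UBD, a ubiquitin-like protein, and CPA4, a carboxypeptidase, had none in either replicate, which allows levels of up to 2.21 and 4.61 for UBD and 0.776 and 1.62 for CPA4. CCL2, a monocyte chemokine, had 5 and 2 reads at a level of 4.89 and 4.08, and LTB, a ligand of the lymphotoxin receptor, had 6 and 0. CYP24A1, the enzyme that degrades active vitamin D, was the only one expressed, at 15.4 and 13. LTB and UBD lie in a region of chromosome 6 that has alternate assemblies, and they are listed with 8 and 7 copies, so their counts are uncertain.

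The lists of transcription factor and co-factor families held 358 genes, of which 218 were expressed, 47 weak and 93 silent. The background among all protein-coding genes was 57.7% expressed and 31.4% silent. SP5 and CTNNB1, whose levels are given above, are in other lists. The 10 highest of the 358 were MYC, ASCL2, ID2, ETV4, FOXQ1, SOX9, FOXM1, IRF3, JUND and HOXB8. ID2, an inhibitor of basic helix-loop-helix factors, was at 993 and 919 and held 95.1% of its family. ETV4, an ETS factor, was at 882 and 894, and ETS2 was at 432 and 411. FOXQ1 at 897 and 865 and FOXM1, a driver of mitotic genes, at 761 and 803 led 44 forkhead genes, and MYC held 59.4% of the MYC family, or 47.3% without division by length, while MYCN was silent.

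The GATA family was led by a member other than the usual one of the gut. GATA2, a factor of blood and endothelium, was at 324 and 295 and held 97.7% of the GATA family, while GATA4 and GATA5 had no read and GATA6 was weak. In the PAX family PAX6 at 52.5 and 63.9 and PAX8 at 36.5 and 32.6 were expressed, but PAX6 held 47.3% in replicate A and 55% in replicate B, on either side of the mark of 50% for dominance.

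The AP-1 genes were led by JUND at 696 and 655 and FOSL1 at 427 and 458, with JUN lowest at 113 and 112. IRF3, which triggers the interferon response, held 67.9% at 739.8 and 735. RUNX2 at 333 and 344 and RUNX3 at 341 and 312 were not separated. CEBPD was at 535 and 484 and CEBPB at 355 and 317. E2F4 at 527 and 488 and E2F1 at 496 and 484 were not separated either. KLF16 led the KLF factors at 304 and 279.6, though KLF13 was highest without division by length, TBX3 led the T-box factors at 203 and 206, IRX5, IRX2 and IRX3 were the expressed IRX genes, between 29.9 and 52.4, and PBX4 at 119 and 106 was not separated from PBX2 at 111 and 105.

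Factors that push epithelial cells towards or away from a mesenchymal state were at 47.8 or below in both replicates. SNAI1 was at 40.5 and 47.2 and OVOL2, a repressor of the mesenchymal state, at 39.2 and 47.8, not separated. GRHL1 was at 27.9 and 29.99. TWIST1, ZEB2, GRHL2, GRHL3 and OVOL1 were silent, and GRHL2, which keeps CDH1 active in many epithelia, had 0 and 1 reads.

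Nuclear receptors are transcription factors that bind hormones and lipids. Of 48 genes 25 were expressed, which is 52.1% beside 57.7% of all protein-coding genes. VDR was highest with 14.1%, followed by the orphan receptor NR2F6 at 558 and 540.1 and the fatty acid receptor PPARD at 488 and 491, a WNT-regulated gene in colon. PPARG was at 118 and 101, the glucocorticoid receptor NR3C1 was low at 16.1 and 13.9, and the sex steroid receptors ESR1 and PGR and the bile acid receptor NR1H4 were silent.

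HOX genes record position along the body axis, and cells of the hindgut normally use the later members of each cluster. All 11 HOXA genes and 9 of 10 HOXB genes were expressed, against 7 of 9 HOXC and 3 of 9 HOXD genes. Of all protein-coding genes 57.7% were expressed. The summed levels were 1926 and 1898 for HOXA, 2445 and 2545 for HOXB, 476 and 441 for HOXC and 101 and 99.1 for HOXD. Levels were highest in the middle of the HOXA and HOXB clusters: HOXA9 was at 645 and 625, HOXA7 at 379 and 407, HOXB8 at 668 and 667 and HOXB6 at 568 and 659.5. HOXB13, which marks the distal colon and prostate, was at 29.7 and 36.5, and HOXA13 was at 24.6 and 20.5. HOXC10 was highest of HOXC at 166 and 147 and HOXD9 of HOXD at 45.1 and 48.3. HOXB1, HOXC12, HOXD3, HOXD4 and HOXD12 were silent. The spans of HOXC4, HOXC5 and HOXC6 overlap on the same strand, as do HOXA9 and HOXA10 with a joint transcript, so reads may be divided between them.

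**Figure D4:**
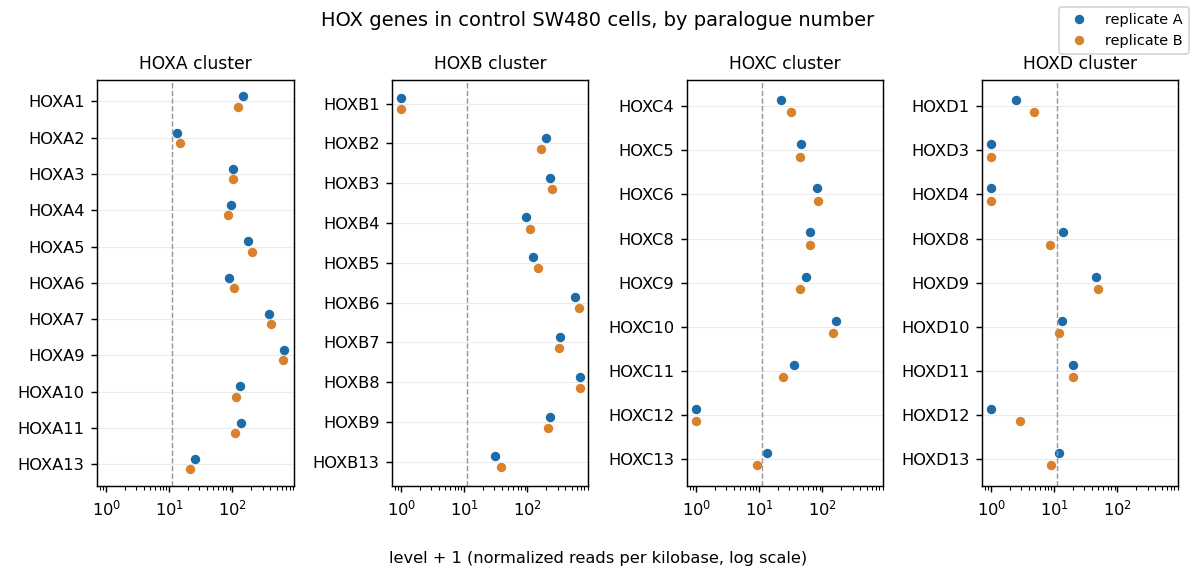
Levels of the HOX genes of the 4 clusters in order of paralogue number, in replicate A (blue) and replicate B (orange), as level + 1 in normalized reads per kilobase on a log axis, with the dashed line at the threshold of 10. HOXA and HOXB genes lie to the right of the line except HOXB1, and the HOXD genes lie at 48.3 or below.

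Across the 83 families, 79 had an expressed member, and in 36 of these the highest member was dominant, that is, held at least 50% of the summed level. The highest member was separated from the second in 73 of the 79. Among the steepest were GATA2, ID2, DSG2 and MST1R, and close to the mark stood those of PAX6, with 51.2%, NTRK2, with 51.2%, PVRL1, with 49.2%, MUC1, with 48.8%, PIK3CB, with 48.7%, and NOTUM, with 48.2%. All of these but NOTUM had 1 replicate on each side of it. Without division by length 17 of the 79 families had another highest member, and 5 of the 36 lost their dominant one. The 4 families with no expressed member were the PDGF and CSF receptors, the VEGF receptors, the R-spondins and the muscarinic receptors. Shares depend on which genes a family list holds, and the lists differ in length from 2 to 48 genes.

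**Figure D5:**
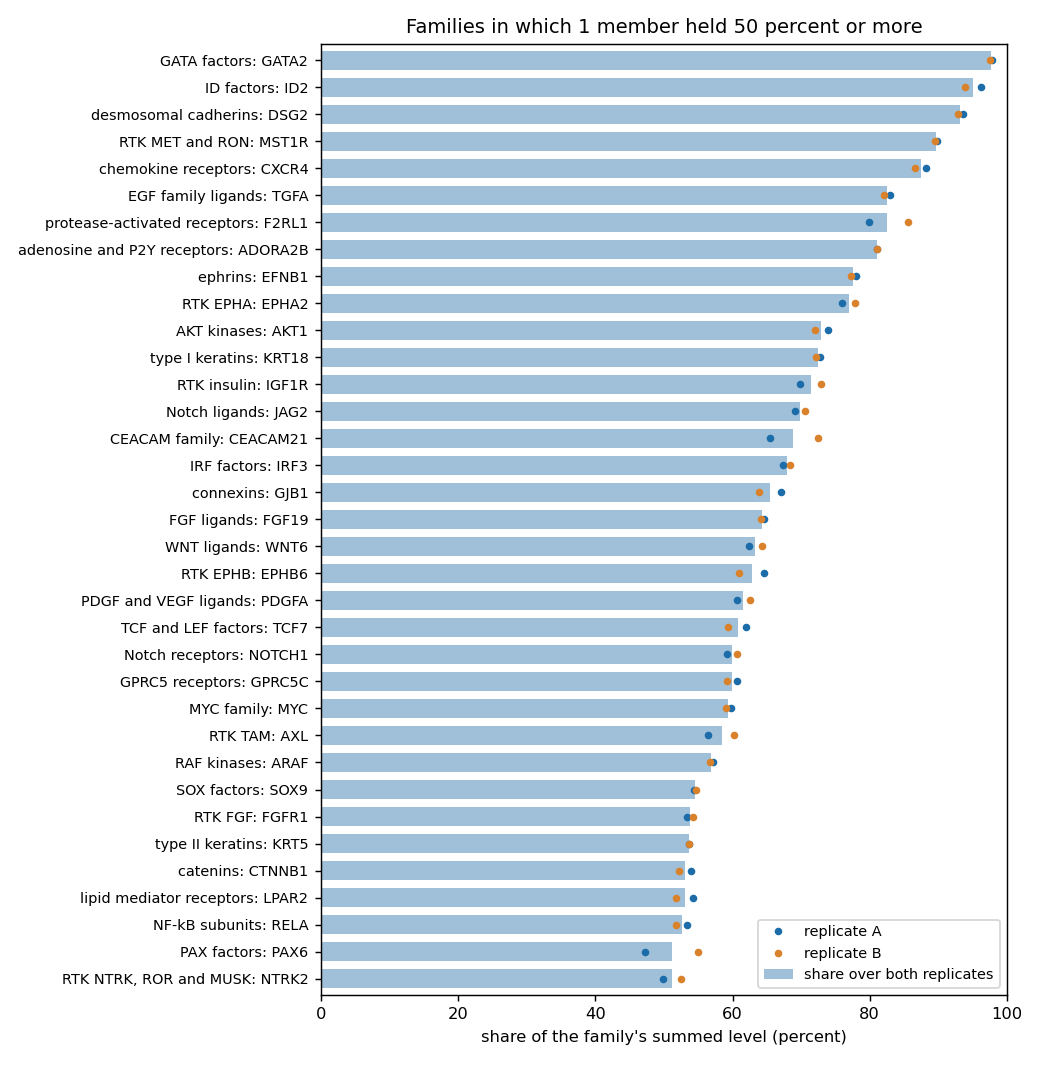
Share of the summed level held by the highest member in 35 of the 36 families where it reached 50%, as bars for both replicates together and as points for replicate A (blue) and replicate B (orange). The bars run from 51.2% for PAX6 and NTRK2 to 97.7% for GATA2, and the points of PAX6 and NTRK2 lie on both sides of 50%.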

How the data were processed

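Control SW480 cells (shRNA against LacZ, 0 h TNF-α) were measured by mRNA-seq of 2 biological replicates, given as such by the study's methods. The replicate letters appear only in the column names. The authors prepared stranded dUTP libraries from oligo(dT)-selected RNA, sequenced 50-base single reads, mapped them with STAR and counted exon reads of RefSeq genes with HOMER. The deposited signal values are reads scaled by the authors to a common total, with a single multiplier for each library, and 1 read is worth 0.726 in replicate A and 1.51 in replicate B. The header of the table names hg19, while the labels and methods name hg38, and coordinates are given as in the table. Columns with the authors' fold changes and p-values for their comparisons were not used, nor were the 6 columns of other samples.

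Reads were recovered by dividing by the value of 1 read, and all values were whole to within 0.1 of a read. Reads on genes were 74.5% and 74.9% of the library totals in the header, 17113413 and 8156495. A level is 1000 times the normalized reads divided by the Length column, with no correction for read length. Expressed, silent, dominant and separated genes were defined as in the text, with thresholds of 10, 3 reads and 50%. Pseudocount 1 was used for log2 values. With 1 group there was no contrast, and no test or p-value was computed. Intervals are exact Poisson intervals at 95%. The upper levels given for counts of 0 use a fixed limit of 3 reads instead, which is under the upper end of such an interval.

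Genes and lists were chosen with earlier results of these data known. All 1089 symbols of the 99 lists were found in the table. Genes named are the 20 highest of at least 200 bases, the 5 highest of each marker list and its defining silent markers, the highest of each family with members of at least 20% and up to 5 silent ones, genes named for their place in a pathway and the genes the study followed by PCR, and some genes that these rules give are not reported here. The symbols come from the annotation column, since 28 symbols in the name column had turned into dates. Calculations used Python 3.11.15, numpy 2.4.6, pandas 2.3.3 and scipy 1.17.1, and the recovery of reads and levels was tested on simulated data.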

Additional observations from a re-analysis of the deposited data

How the results depend on the processing

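The count of expressed genes, 12027, ranged from 12338 to 12344 when 1 replicate was used alone and stayed within 1.5 times for the other lengths, pooled reads, thresholds of 5 and 20 and without copies, between 10917 and 12962. The count of silent genes, 11588, was 11615 to 12368 with 1 replicate and 9402 to 12786 with limits of 0 and 10 reads. Families with a dominant member numbered 36 in the report, 36 to 37 with 1 replicate, 51 at a mark of 40% and 23 at 60%, the last being the only count to move by over 1.5 times. The highest member was unchanged in 77 to 78 of 79 families with 1 replicate alone, in all 79 with effective lengths and with pooled reads, and in 62 without division by length, where for example WNT5A led the WNT ligands and EGFR the ERBB receptors. The single-replicate changes were EGFR for ERBB2 and OVOL2 for SNAI1 in replicate B alone and RUNX3 for RUNX2 in replicate A alone. The share of the highest member stayed within 1 SD of the replicates in 70 of the 79 families with effective lengths, in 62 with expressed members only and in 10 without division by length. Leaving out the members that were not expressed cannot displace an expressed highest member, and a share from 1 replicate or from pooled reads is near that of both by the way it is made, so neither is counted here. The median difference between replicates, 0.11, was between 0.11 and 0.16 with other pseudocounts or no filter. No paired analysis was possible because there was 1 group and no test.

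Replicate B had 47.9% of the reads of replicate A on genes, so a gene of 3 reads in it has a higher level than in A. Differences of transcript length between the table's entry and the form the cells used were not measured.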

Other observations

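Some nutrient transporter genes with high levels are given here, chosen after their values were seen. Of 380 genes with an SLC symbol and at least 200 bases, 191 were expressed, which is 50.3% beside 57.7% of all protein-coding genes. Behind SLC1A5 came SLC7A5, the leucine transporter, at 8437 and 7709, and its partner chain SLC3A2 at 4556 and 4328. The glucose transporters SLC2A1 at 7183 and 7218 and SLC2A3 at 3392 and 3675 and the lactate exporter SLC16A3 at 2439.7 and 2453 were also in the top 10 of this class, as were the mitochondrial carriers SLC25A5 at 3409 and 3182 and SLC25A3 at 2126 and 2016.

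FGF19 and FGF3 are neighbours on chromosome 11, and the genes from CCND1 to CTTN were listed after this was noticed. Of the protein-coding genes CCND1, at 4262 and 4381, was followed by ORAOV1 at 139 and 153, FGF19, FGF4, FGF3, ANO1 at 663 and 744, FADD at 431 and 415, PPFIA1 at 217 and 229.6 and CTTN at 448 and 447. FGF4, which lies between FGF19 and FGF3 in this order, had no read in either replicate, which allows a level of up to 1.79 and 3.74. The noncoding genes LOC101928443, ANO1-AS2 and MIR548K of the same interval were silent as well. The number of copies of this region was not measured here.

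Several long noncoding RNAs, also chosen after their values were seen, reached levels over 1000. LRRC75A-AS1 was at 3578 and 3286, SNHG5 at 2080.1 and 1896, DANCR at 1515 and 1374 and ZFAS1 at 1246 and 1159, all of them host genes of small nucleolar RNAs. MALAT1, a nuclear RNA, was at 1200.1 and 1631, a wider gap between replicates than for most genes of its level.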
